A study of Rattus norvegicus with 57 samples.

Results

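The comparison set the kidneys of saline-treated rats killed on day 26 against those of saline-treated rats killed on day 8, with no drug given to either group. It rests on 9 of the 57 arrays of a cisplatin study: 4 control kidneys of day 26 and 5 control kidneys of day 8, identified by their labels. All were male Han Wistar rats, an outbred stock, that received the vehicle for cisplatin by a single intraperitoneal injection at 8 weeks of age. The groups were killed 18 days apart, and this pair of days was chosen with their spike-in control ratios known to be alike. The labels call the samples biological replicates, with no day of processing given, so the day of kill and any handling done by day cannot be told apart from the rats' age. RNA came from cortex-enriched kidney tissue and was read on the Affymetrix Rat 230 2.0 array, where probe sets of short oligonucleotides measure transcripts near their 3' ends. The other groups used here are the 5 control kidneys each of days 3 and 5, which share the fit, and the 5 rats each killed on days 26 and 8 after 1 mg/kg cisplatin, a platinum drug that injures the proximal tubule. The fit of the 1 mg/kg rats also held those killed on days 3 and 5. An alternative fit of the controls took its spread from all 57 arrays, which include kidneys of rats given 3 mg/kg cisplatin.

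Nephron formation in the rat ends soon after birth, and the kidney then grows by enlarging its tubules and the matrix between and beneath them. Fibroblasts and pericytes lay down fibrillar collagens, and tubule cells and vessels rest on basement membranes of laminin, nidogen and collagen IV. Matrix synthesis is known to be high in growing tissue and lower in mature tissue.

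Of 11078 genes tested, 144 (1.3%) differed between day 26 and day 8 at a limma adjusted p under 0.05, the threshold meant by "passed" below. Of these, 73 (0.659%) were higher and 71 (0.641%) were lower on day 26. Changes were small. The median absolute change of the called genes was 0.41 on the scale of log2(signal + 16), which understates the change of dim genes, and the extremes were 0.85 for Hsph1 and -0.89 for Smoc2. Only 39 of the 144 differed by at least 1.5-fold in mean signal and 8 by at least 2-fold. In 131 of the 144 the 2 groups did not overlap, 69 with day 26 above and 62 with it below, where 6.58% of all genes did not overlap, 3.75% with day 26 above and 2.83% with it below. At an unadjusted p under 0.05 there were 2004 genes. The spread in the fit comes from 19 control arrays, and with the 9 compared arrays alone 29 genes passed, 25 of them among the 144. Leaving out day 26 replicate 1 or 4 gave 48 or 47 genes, and leaving out day 8 replicate 2 or 3 gave 90 or 70.

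The kidneys of the 2 days separated on the first principal component of these 9 arrays, which held 24% of the variance, with scores of 0.64 to 16.5 on day 26 and -13.1 to -3.02 on day 8. Within day 26 arrays correlated at 0.986 to 0.989, within day 8 at 0.987 to 0.992, and between the days at 0.982 to 0.989. The 3'/5' signal ratio of the actin control, a measure of RNA integrity, was 5.10 ± 0.57 on day 26 and 5.32 ± 0.48 on day 8 (SD, exact permutation test, two-sided, adjusted p = 0.91). The GAPDH ratio, the median signal and the share of probe sets under a signal of 16 also did not pass, at adjusted p of 0.91 to 0.92, where the smallest unadjusted p that 4 against 5 arrays allow is 0.0159. Hybridisation spike-in signals were 583 to 765 on day 26, highest in replicate 4, and 558 to 699 on day 8. Labelling spike-in signals were 51.6 to 64.9 on day 26, lowest in replicate 4, and 59.2 to 70.6 on day 8. The days were chosen with their spike-in ratios known to be alike, so a likeness in these signals is no test of the arrays.

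Genes of the interstitial matrix were lower on day 26. Of 33 measured genes of fibrillar collagens and their partners, 10 fell and 0 rose, against 0.641% of all genes lower. The median change of the list was -0.33, against 0.01 over all genes, and 26 of its 33 members had a negative change. Those that fell were the collagen chains Col3a1, Col1a1, Col1a2, Col5a2, Col6a3 and Col15a1, the collagen-binding glycoproteins Sparc, Fn1 and Tnc, and the collagen crosslinking enzyme Loxl2.

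Col3a1, the chain of collagen III, had signals of 306, 455, 347 and 321 in the day 26 kidneys, against 569, 607, 688, 569 and 624 in the day 8 kidneys. The highest day 26 kidney lay below the lowest day 8 kidney, and the log2 change was -0.76 ± 0.11 (adjusted p = 0.00299). Col1a1, a chain of collagen I, the main collagen of the interstitium, had signals of 46.1, 62.5, 45.8 and 41.7 in the day 26 kidneys, against 95.8, 119, 89.9, 81.7 and 77.5 in the day 8 kidneys. Its groups did not overlap either, with a change of -0.74 ± 0.15 (adjusted p = 0.0152), and its other kept probe set gave -0.62. Leaving out day 26 replicate 1 or 4 gave Col1a1 an adjusted p of 0.0562 or 0.0582.

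Tnc, tenascin C, a glycoprotein made in growing and healing tissue, had signals of 18.7, 23.2, 24.8 and 16.8 in the day 26 kidneys, against 49.1, 52.9, 40.6, 38.7 and 39.2 in the day 8 kidneys. It was dim, and its signals on day 26 were less than those of every day 8 kidney, with a change of -0.70 ± 0.12 (adjusted p = 0.00775). Loxl2, a lysyl oxidase that joins collagen and elastin chains, had signals of 31.6, 27.8, 40.5 and 19.96 in the day 26 kidneys, against 51.1, 57.9, 77.9, 59.3 and 51.9 in the day 8 kidneys, again without overlap, and changed by -0.73 ± 0.14 (adjusted p = 0.0103).

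The other 6 members that fell are named here because they complete the count. Sparc, which binds collagen as it is secreted, averaged 1139 ± 78.2 on day 26 and 1592 ± 77.6 on day 8 (SD, n = 4 and n = 5), a change of -0.48 ± 0.08 (adjusted p = 0.00643). Col1a2 averaged 328 ± 33.6 on day 26 and 474 ± 28.2 on day 8, a change of -0.52 ± 0.09 (adjusted p = 0.00828). Col15a1, a collagen of the zone around basement membranes, changed by -0.52 ± 0.12, Col5a2 by -0.46 ± 0.11, Col6a3 by -0.43 ± 0.09 and Fn1, fibronectin, by -0.36 ± 0.09. In all 10 genes the 4 kidneys of day 26 lay below the 5 of day 8, as in 62 of all 71 genes that fell. Of the 33 measured members 11 had that order, against 2.83% of all genes. All day 26 kidneys were above in 1 member, against 3.75% of all genes.

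**Figure D1:**
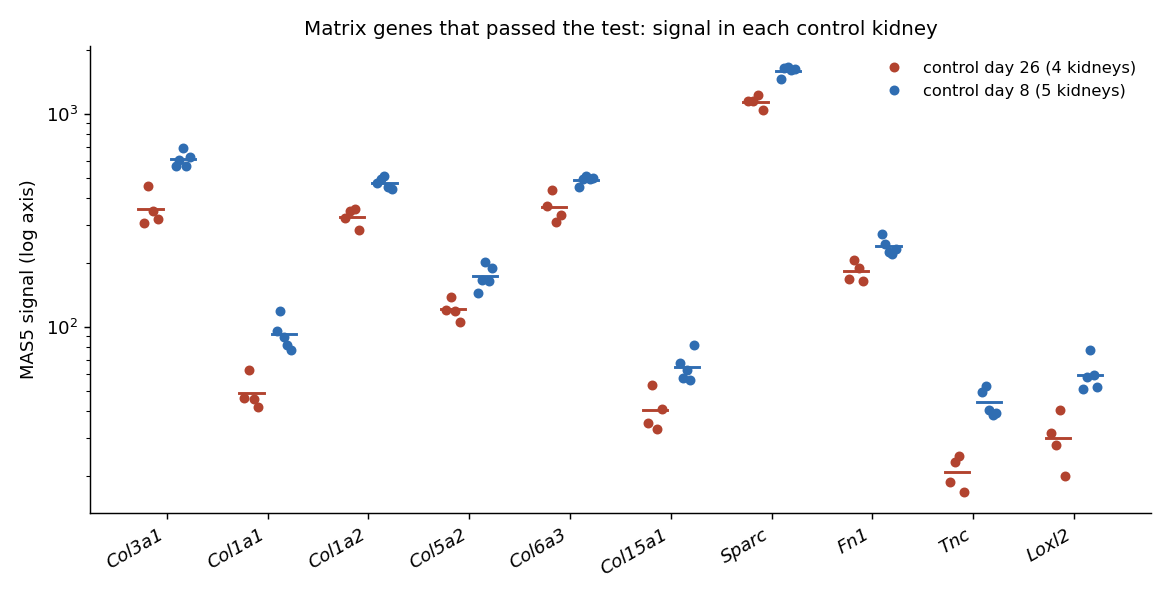
Signal of the 10 matrix genes that passed, on a log axis, with a point per kidney and a bar at the group mean (red, 4 control kidneys of day 26, blue, 5 control kidneys of day 8). In every gene the day 26 points lie below the day 8 points, as for Col3a1 at 306 to 455 against 569 to 688.

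The fall of the matrix list had different counts when single kidneys were left out: 4 without day 26 replicate 4, 5 without day 26 replicate 1, 6 without day 26 replicate 3, 6 without day 8 replicate 3, 6 without day 8 replicate 5 and 14 without day 26 replicate 2. Rises stayed at 0 in each. With the 9 compared arrays alone 5 members passed, and with the hybridisation spike-in level as a covariate 6 did. In whole tissue, fewer cells of a type and less RNA per cell cannot be told apart. Markers of vascular smooth muscle and pericytes had 0 of 13 members pass, with summed signals of 506 to 637 on day 26 and 511 to 628 on day 8. Endothelial markers had 0 of 22 pass, with summed signals of 4865 to 5061 on day 26 and 4850 to 5555 on day 8. Macrophage and myeloid markers had 0 of 16 pass, all 16 with a negative change, and summed signals of 2549 to 2731 on day 26 and 2830 to 3218 on day 8, and their part in the fall of the matrix genes was not tested.

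Genes of the basement membrane followed in part. Of 19 laminins, nidogens and integrins, 3 fell and 0 rose, against 0.641% of all genes lower, and the list median was -0.06. Lamc1, the gamma chain shared by most laminins, had signals of 158, 193, 192 and 166 in the day 26 kidneys, against 237, 252, 254, 227 and 248 in the day 8 kidneys, without overlap and with a change of -0.43 ± 0.10 (adjusted p = 0.0321). Lama4, a laminin chain of vessels, changed by -0.37 ± 0.08 (adjusted p = 0.0262). Nid1, nidogen 1, which links laminin to collagen IV, changed by -0.77 ± 0.18 (adjusted p = 0.036), although day 8 replicate 4, at 494, lay below day 26 replicate 2, at 539. Probe sets disagreed for Nid1 and Lamc1: a further kept probe set gave 0.16 for Nid1 and -0.04 for Lamc1, neither of which passed. None of the 3 passed without day 26 replicate 1, and none passed without day 26 replicate 4 or without day 8 replicate 2, 3 or 5. With the hybridisation spike-in level as a covariate 0 passed, and with the mean of the kept probe sets 1 did.

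Smoc2, a secreted protein of the SPARC family that binds matrix and growth factors, was the largest fall among genes that passed. Its signals were 33, 43.5, 52.6 and 41.5 in the day 26 kidneys, against 152, 127, 67.4, 54.1 and 90.1 in the day 8 kidneys. All day 26 kidneys were lower, but the day 8 kidneys ranged widely, with replicates 1 and 2 the highest, and the change was -0.89 ± 0.21 (adjusted p = 0.036). Ndufs4, a subunit of respiratory complex I, and Myh14, a non-muscle myosin heavy chain, had the same 2 kidneys on top. Ndufs4 had signals of 208, 253, 242 and 214 in the day 26 kidneys, against 496, 693, 364, 294 and 321 in the day 8 kidneys, and changed by -0.81 ± 0.19 (adjusted p = 0.0381). Myh14 had signals of 26.2, 31.4, 34 and 38.3 in the day 26 kidneys, against 89.8, 85.2, 46.8, 45.8 and 46.7 in the day 8 kidneys, and changed by -0.66 ± 0.15 (adjusted p = 0.0321). Each of the 3 missed the threshold without day 8 replicate 1 (adjusted p of 0.0639 to 0.0778) and without day 8 replicate 2 (0.0751 to 0.089).

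The same 2 day 8 kidneys were the highest of their day in 3 transporter genes, chosen after their values were seen. Over the 40 proximal tubule transporters they were not, with summed signals of 43153 and 45729 in replicates 1 and 2, where the highest day 8 kidney had 48027. Slco1a3, an organic anion transporter, had signals of 147, 107, 376 and 222 in the day 26 kidneys, against 627, 910.4, 344, 242 and 274 in the day 8 kidneys, and Slc22a2, an organic cation transporter of the basolateral membrane, had 421, 496, 732 and 584 in the day 26 kidneys, against 967, 1147, 585, 473 and 688 in the day 8 kidneys. Neither passed, at -1.07 ± 0.37 (adjusted p = 0.139) and -0.41 ± 0.19 (adjusted p = 0.253), and the highest day 26 kidney for both was replicate 3. Slc7a12, an amino acid transporter, had signals of 97.8, 84.8, 434 and 182 in the day 26 kidneys, against 492, 418, 136, 99.5 and 73.5 in the day 8 kidneys, with the highest values in the same 3 kidneys. Over the 25 measured androgen and sex dependent genes, which hold all 3 transporters, 0 passed. Summed signals ran from 16845 to 23332 on day 26 and from 18348 to 24269 on day 8. Day 8 replicates 1 and 2 were the highest of their day there, at 21418 and 24269. On the second principal component of the 9 arrays, with 16.6% of the variance, they scored 9.14 and 9.04. The rest of the day 8 kidneys scored -12.9 to -7.68. The part of these differences in the falls of Smoc2, Ndufs4 and Myh14 was not tested.

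Etv5, an ETS transcription factor that acts downstream of growth factor receptors in the developing kidney, had signals of 46.9, 57.5, 60.5 and 55.5 in the day 26 kidneys, against 117, 138, 102, 89 and 123 in the day 8 kidneys. The groups did not overlap and the change was -0.86 ± 0.12 (adjusted p = 0.00225). A further kept probe set of Etv5 gave 0.24 and did not pass, so the fall is that of 1 probe set. Herc1, a very large ubiquitin ligase, changed by -0.74 ± 0.12 (adjusted p = 0.00661), with -0.12 on its further probe set. Mex3b, an RNA-binding protein, averaged 17.3 ± 3.98 on day 26 and 35.5 ± 9.3 on day 8 and changed by -0.62 ± 0.13 (adjusted p = 0.0203).

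Enzymes of cholesterol synthesis, a pathway switched by the sterol sensor SREBP2, were lower on day 26 in part. Of 20 measured members 3 fell and 0 rose, against 0.641% of all genes lower, 19 had a negative change and the median was -0.21. Cyp51, which removes a methyl group from lanosterol, had signals of 262, 209, 229.5 and 132 in the day 26 kidneys, against 333, 283, 329, 363 and 386 in the day 8 kidneys, and changed by -0.69 ± 0.15 (adjusted p = 0.0243). Idi1, which interconverts the isoprene units, had signals of 292, 319, 238 and 171 in the day 26 kidneys, against 446, 361, 379, 377 and 481 in the day 8 kidneys, and changed by -0.67 ± 0.15 (adjusted p = 0.0321). Sqle, squalene epoxidase, had signals of 52.4, 62.8, 50.6 and 28.9 in the day 26 kidneys, against 86.6, 73.1, 88.6, 75.3 and 82.5 in the day 8 kidneys, and changed by -0.62 ± 0.13 (adjusted p = 0.0262). The groups did not overlap in any of the 3, and day 26 replicate 4 was the lowest kidney in each. The number of members that fell was 0 without day 26 replicate 4, without day 8 replicate 3 or without day 8 replicate 5, 1 without day 26 replicate 1 or day 8 replicate 1, and 0 with the 9 compared arrays alone. It was also 0 with the hybridisation spike-in level as a covariate, and 1 with the spread of all 57 arrays.

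The chaperone genes Hsph1, Hspb1 and Hsp90ab1 were higher on day 26. Cytosolic chaperones hold or refold other proteins and are induced together by the heat shock factor HSF1, which binds repeats of the bases GAA in alternating orientation. Of 17 measured heat and cold shock genes, 3 rose and 0 fell, against 0.659% of all genes higher. The list median was 0.17 and 14 members had a positive change. Dnaja1, an HSP40 co-chaperone, lay near that median, at 0.16. Some chaperones were nearer 0, such as Hspe1, of mitochondria, at 0.09 and Dnajb1, an HSP40 co-chaperone, at -0.08. None of these 3 passed, and they are named outside the rule given below.

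The 150 bases before the annotated start of the 3 genes that rose are shown here because all 3 passed in the same direction. They are RefSeq sequence of build GRCr8, read 5' to 3' on the strand of the gene, with matches to the motif GAANNTTC in capitals, a motif that reads the same on both strands. Hsph1 lies on the + strand at chr12:10427218-10427367, Hspb1 on the - strand at chr12:26432302-26432451 and Hsp90ab1 on the + strand at chr9:22930273-22930422.
Hsph1: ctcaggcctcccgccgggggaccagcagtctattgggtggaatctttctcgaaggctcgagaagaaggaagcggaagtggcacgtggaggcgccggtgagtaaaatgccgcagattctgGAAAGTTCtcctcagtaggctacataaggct
Hspb1: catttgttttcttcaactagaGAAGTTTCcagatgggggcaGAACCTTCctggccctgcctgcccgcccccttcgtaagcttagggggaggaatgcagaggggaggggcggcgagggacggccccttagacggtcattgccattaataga
Hsp90ab1: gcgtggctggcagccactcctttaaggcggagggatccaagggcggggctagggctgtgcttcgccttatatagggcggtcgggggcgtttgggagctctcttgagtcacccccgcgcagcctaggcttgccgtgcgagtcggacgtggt
The match in Hsph1 begins at position -31 from the start, and those in Hspb1 at -129 and -109. Only this order of the alternating repeats, with GAA first, was searched. The other order, with GAA last and the same spacing, was not searched, and the capitals and counts given here leave it out. The Hsph1 sequence above holds a stretch of that other order in lower case, so the capitals do not mark every possible HSF1 site. No match lies in the 250 bases before Hsp90ab1. In that window of 250 bases, 9 of the 17 measured genes of the list hold the motif (52.9%), as do 2420 of 33469 RefSeq promoters of the table (7.23%). The list was chosen as heat and cold shock genes. Of the 3 genes that rose 2 hold the motif, and the rest of the 9 are Dnajb1, Dnaja1, Hspb8, Hspe1, Hspd1, Bag3 and Fkbp4, which did not pass. A link between the motif and the rise was not tested.

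Hsph1, a large HSP70 relative that exchanges the nucleotide bound to HSP70, had signals of 864, 629, 684 and 959 in the day 26 kidneys, against 345, 408, 517, 475 and 390.3 in the day 8 kidneys. The lowest day 26 kidney was above the highest day 8 kidney, and the change of 0.85 ± 0.15 (adjusted p = 0.00775) was the largest rise among genes that passed. Its other kept probe set rose by 0.51. Hspb1, the small chaperone HSP27, had signals of 285, 188, 200.4 and 286 in the day 26 kidneys, against 144, 143, 142, 156 and 113 in the day 8 kidneys, without overlap and with a change of 0.70 ± 0.13 (adjusted p = 0.00838). Hsp90ab1, the constitutive cytosolic HSP90, had signals of 2331, 2157, 2228 and 2683 in the day 26 kidneys, against 1789, 1864, 1850.1, 1886 and 1711 in the day 8 kidneys, and changed by 0.36 ± 0.06 (adjusted p = 0.00775), with 0.15 on a further probe set that did not pass.

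Other members leaned the same way without passing. Hspa1a, the inducible HSP70, had signals of 129, 101, 120.1 and 201 in the day 26 kidneys, against 73, 99.4, 71, 95.1 and 77.5 in the day 8 kidneys, and a change of 0.60 ± 0.15 (adjusted p = 0.054). Its groups did not overlap, and day 26 replicate 4 was the highest. The HSP90 co-chaperones Fkbp4 and Stip1 had changes of 0.39 ± 0.10 (adjusted p = 0.0593) and 0.29 ± 0.08 (adjusted p = 0.0652). The cold-induced RNA-binding proteins went the other way, with -0.37 ± 0.14 (adjusted p = 0.154) for Rbm3 and -0.12 ± 0.09 (adjusted p = 0.521) for Cirbp. These 5 genes were chosen after their values were seen.

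Day 26 replicates 1 and 4 had the highest signals of Hsph1, Hspb1 and Hsp90ab1. Replicate 4 also had the most blood cell transcript, with a summed signal of 7913 over 7 measured markers where the day 26 median was 2690 and the day 8 kidneys had 1602 to 2825. None of the 7 markers passed. The number of heat shock members that rose was 3 without replicate 4 and 3 without replicate 1, and 1 with the 9 compared arrays alone.

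**Figure D2:**
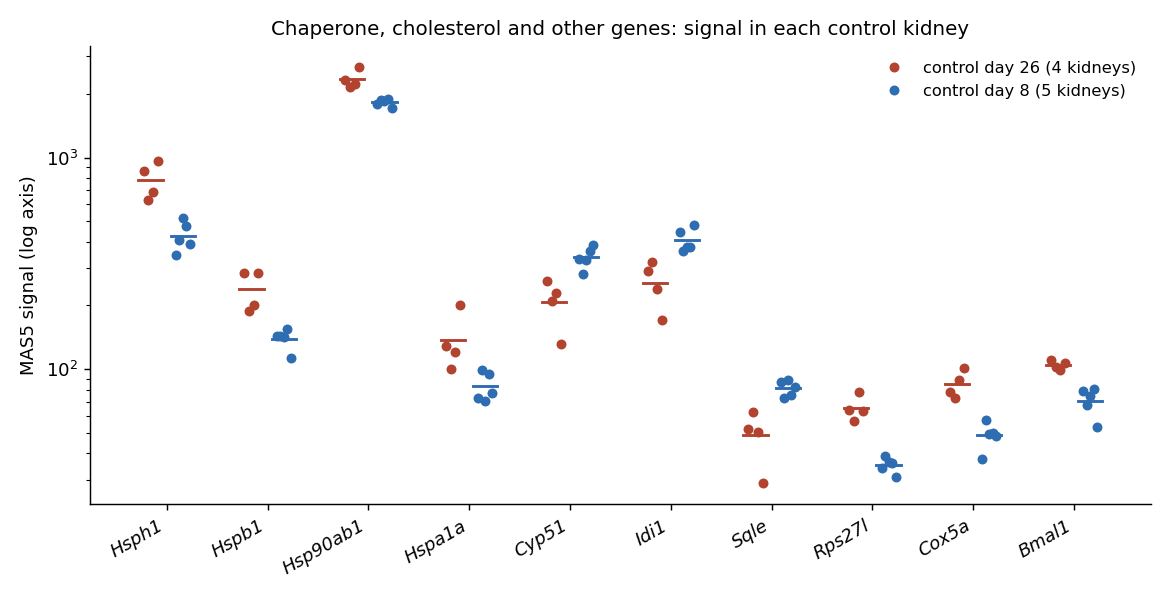
Signal of 4 chaperone genes, 3 cholesterol enzymes, Rps27l, Cox5a and Bmal1, on a log axis, with a point per kidney and a bar at the group mean (red, 4 control kidneys of day 26, blue, 5 control kidneys of day 8). The groups do not overlap in any of the 10 genes. Day 26 lies above day 8 in the chaperones and below it in Cyp51, Idi1 and Sqle, and Hspa1a did not pass the test.

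The smallest adjusted p of the comparison belonged to Rps27l, a ribosomal protein S27 relative that p53 induces in human cells, with signals of 63.9, 56.7, 78.1 and 63.5 in the day 26 kidneys, against 34.1, 38.8, 36.4, 36 and 30.8 in the day 8 kidneys. The day 26 kidneys were all higher, by 0.67 ± 0.08 (adjusted p = 0.000255). Cox5a, a subunit of cytochrome c oxidase, had signals of 78.4, 73, 89.4 and 101 in the day 26 kidneys, against 37.8, 57.5, 49.3, 50.01 and 48.6 in the day 8 kidneys, also without overlap, and a change of 0.65 ± 0.09 (adjusted p = 0.00225). For both, day 8 stood apart from the other 3 control days. Rps27l averaged 65.4 ± 5.36 (day 3), 67.4 ± 3.57 (day 5), 35.2 ± 2.97 (day 8) and 65.5 ± 8.99 (day 26) (SD, n = 5, 5, 5 and 4). Cox5a averaged 102 ± 9.39 (day 3), 93.4 ± 6.28 (day 5), 48.7 ± 7.02 (day 8) and 85.6 ± 12.6 (day 26). Day 8 against day 3 gave -0.67 for Rps27l (adjusted p = 2.38e-05) and -0.87 for Cox5a (adjusted p = 8.56e-06), and day 26 against day 3 gave -0.00 and -0.22, where neither passed. These day pairs share arrays with the day 26 against day 8 comparison.

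Cox5a and Ndufs4, which moved in opposite directions, were the 2 of 53 measured oxidative phosphorylation genes that passed. The list median was 0.07, and 43 members had a positive change. In cytosolic ribosomal proteins 29 of 31 had a positive change with a median of 0.10, and 0 passed.

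The matrix genes ran otherwise over the 4 days. Col3a1 averaged 549.9 ± 83.2 (day 3), 559 ± 55.1 (day 5), 611 ± 49.2 (day 8) and 358 ± 67.3 (day 26). Day 26 was the lowest day, and day 26 against day 3 and against day 5 gave -0.60 (adjusted p = 0.0107) and -0.63 (adjusted p = 0.00847). Sparc averaged 1495 ± 153 (day 3), 1793 ± 200.05 (day 5), 1592 ± 77.6 (day 8) and 1139 ± 78.2 (day 26), with -0.38 and -0.64 for the same pairs, both of which passed. Col1a1 averaged 78.4 ± 23.4 (day 3), 109 ± 13.1 (day 5), 92.8 ± 16.2 (day 8) and 49 ± 9.2 (day 26), and of its 2 pairs only day 5 passed, at -0.94, where day 3 gave -0.51 (adjusted p = 0.0687). Day 8 against day 3 gave 0.16, 0.09 and 0.23 for Col3a1, Sparc and Col1a1, none of which passed. Tnc passed against day 3 (-0.49, adjusted p = 0.0367) and not against day 5 (-0.43, adjusted p = 0.0512).

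Hsph1 averaged 502 ± 95.6 (day 3), 466 ± 77.7 (day 5), 427 ± 68.9 (day 8) and 784 ± 154 (day 26), highest on day 26, which passed against day 3 (0.62) and day 5 (0.73). Cyp51 averaged 267 ± 45.7 (day 3), 222 ± 30.8 (day 5), 339 ± 38.8 (day 8) and 208 ± 55.1 (day 26). It was highest on day 8, and day 26 against days 3 and 5 gave -0.36 and -0.11, neither of which passed. Idi1 and Sqle likewise gave -0.35 and -0.19 against day 3 and did not pass.

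**Figure D3:**
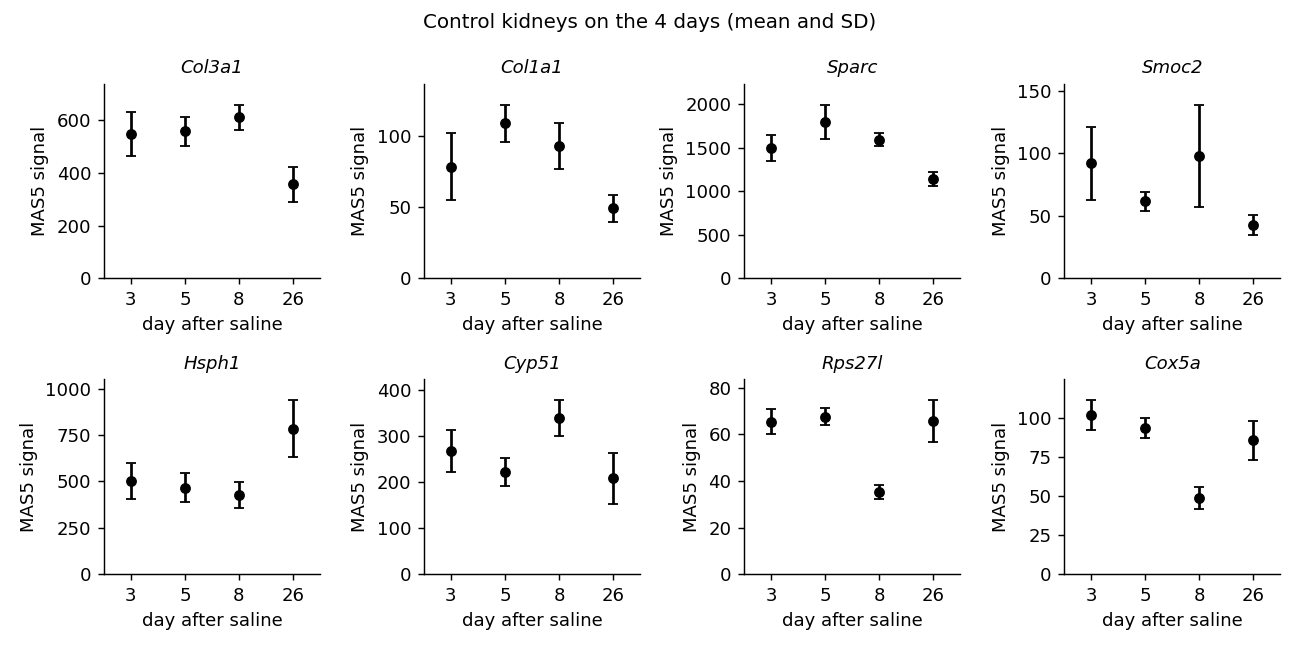
Mean signal and SD of 8 genes in control kidneys on days 3, 5, 8 and 26 after saline (5, 5, 5 and 4 kidneys), with signal axes from 0. Col3a1, Col1a1, Sparc and Smoc2 are lowest and Hsph1 is highest on day 26, whereas Cyp51 is highest and Rps27l and Cox5a are lowest on day 8.

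Across all genes, day 26 against day 3 called 240 genes (2.17%), day 26 against day 5 called 383 (3.46%), day 8 against day 3 called 28 (0.253%), day 8 against day 5 called 533 (4.81%) and day 5 against day 3 called 551 (4.97%). Spike-in hybridisation signals were 918 to 1114 on days 3 and 5, above every array of days 8 and 26, so the comparisons that cross these pairs of days also cross that difference. Its part in them was not tested. The spike-in level was a covariate only for day 26 against day 8, a pair that does not cross that difference. In that fit 108 genes passed.

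The remaining large rises fell in no single list. Bcat2, the mitochondrial enzyme that starts the breakdown of branched-chain amino acids, had signals of 389, 307, 304 and 365 in the day 26 kidneys, against 252, 226, 233, 252 and 219 in the day 8 kidneys. Its groups were well apart, with a change of 0.50 ± 0.09 (adjusted p = 0.00775). Inpp5b, an inositol polyphosphate phosphatase, averaged 466 ± 37.6 on day 26 and 309 ± 58.2 on day 8 and changed by 0.59 ± 0.10 (adjusted p = 0.00643). Aplf, a factor of DNA end joining, changed by 0.54 ± 0.10 (adjusted p = 0.013), where day 26 against day 5 gave -0.02. Aopep, an aminopeptidase, changed by 0.55 ± 0.13 (adjusted p = 0.0399) and Cbx7, a Polycomb protein, by 0.56 ± 0.14 (adjusted p = 0.0424). LOC100912167, for which no role is given here, changed by 0.50 ± 0.10 (adjusted p = 0.0237).

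Plin2, which coats lipid droplets and is induced by PPAR-alpha, had signals of 692, 675, 518 and 1028 in the day 26 kidneys, against 497, 397, 470.1, 474 and 478 in the day 8 kidneys, and a change of 0.60 ± 0.13 (adjusted p = 0.024), the only one of 30 fatty acid oxidation and PPAR target genes to pass. Its further probe set gave 0.10. Day 26 replicate 4 was the highest kidney by far, and without it the change was 0.42 with an adjusted p of 0.0611. That kidney also stood apart in Angptl4, a secreted lipase inhibitor and PPAR target, whose signals were 49.2, 28, 18.3 and 285 in the day 26 kidneys, against 17.7, 21, 23.5, 16.9 and 24.9 in the day 8 kidneys, with a change of 1.01 ± 0.38 (adjusted p = 0.164). Pfkfb4, which sets the level of fructose 2,6-bisphosphate, changed by 0.51 ± 0.11 (adjusted p = 0.024), and was the only one of 16 hypoxia genes to pass. Replicate 4 was again highest, and without it the adjusted p was 0.0825.

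Few segment genes passed, and few genes of any kind did, with 0.659% of all genes higher and 0.641% lower. Klk1, the kallikrein that the connecting tubule releases into urine, had signals of 2121, 1877, 2041 and 1898 in the day 26 kidneys, against 1622, 1574, 1713, 1549.7 and 1515 in the day 8 kidneys, without overlap and with a change of 0.31 ± 0.05 (adjusted p = 0.00775). Slc8a1, the sodium-calcium exchanger of the distal convoluted and connecting tubule, had signals of 685, 741, 750.4 and 548 in the day 26 kidneys, against 855, 884, 964, 944 and 1015 in the day 8 kidneys, and fell, with a change of -0.45 ± 0.08 (adjusted p = 0.00883). They were the 2 of 23 distal genes that passed, with a list median of -0.04. Neither passed with the spread taken from all 57 arrays of the series, which include those of cisplatin-treated rats. The adjusted p was then 0.5 for Klk1 and 0.32 for Slc8a1, and the part of the drug in that spread was not tested. Ddc, the enzyme with which proximal tubule cells make dopamine, changed by 0.30 ± 0.07 (adjusted p = 0.0373), the only one of 32 proximal tubule enzymes to pass, with a list median of 0.10. Of 40 proximal tubule transporters 0 passed, as did 0 of 23 collecting duct genes and 0 of 11 podocyte genes.

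The defining genes of the segments were all measured in these cortex-enriched samples. Slc34a1, the phosphate transporter of the proximal tubule, averaged 4026 ± 682 on day 26 and 3528 ± 262 on day 8, and Lrp2, megalin, 3271 ± 272 on day 26 and 3057 ± 149 on day 8. Umod, uromodulin of the thick ascending limb, averaged 2786 ± 412 on day 26 and 2671 ± 303 on day 8, Slc12a3, the thiazide-sensitive cotransporter, 772 ± 45.4 on day 26 and 846 ± 46.1 on day 8, and Aqp2, the water channel of the collecting duct, 1438 ± 379 on day 26 and 1246 ± 144 on day 8. Nphs1, nephrin of podocytes, averaged 103 ± 12.4 on day 26 and 106 ± 12.9 on day 8. None of the 6 passed, with changes of -0.13 for Slc12a3 to 0.18 for Aqp2 and 0.18 for Slc34a1. Markers of other tissue were near the floor or did not pass. Alb, albumin of liver, averaged 3.2 ± 2.31 on day 26 and 2.51 ± 0.808 on day 8, and the 3 measured adrenal genes and 9 measured adipocyte genes had 0 calls.

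Injury genes had no member pass. Lcn2, which encodes the injury marker NGAL, averaged 23.5 ± 3.6 on day 26 and 24.6 ± 3.57 on day 8, with a change of -0.04 ± 0.09 (adjusted p = 0.883), and Cdkn1a, the p53 target p21, averaged 40.8 ± 6.75 on day 26 and 50.5 ± 15.1 on day 8, with a change of -0.20 ± 0.16 (adjusted p = 0.541). Of 19 injury markers 0 passed, with a list median of -0.01. Its largest changes were those of Vnn1, the pantetheinase vanin 1, at 0.58 ± 0.19 (adjusted p = 0.113), and Tff3, trefoil factor 3, at -0.57 ± 0.35 (adjusted p = 0.407), and the groups overlapped in both. Of 18 p53 targets 1 passed, Xpc, a sensor of DNA damage, at 0.32 ± 0.05 (adjusted p = 0.00775).

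Genes of cell division had lower values without passing. Of 26 mitosis genes, 23 had a negative change, with a median of -0.25, and 0 passed. Of 26 DNA replication genes, 23 had a negative change, with a median of -0.14, and 0 passed. Ect2, which drives cytokinesis, had signals of 20.1, 33.7, 30.4 and 39.3 in the day 26 kidneys, against 47.8, 53.1, 86.9, 46.3 and 44.6 in the day 8 kidneys, and a change of -0.60 ± 0.18 (adjusted p = 0.0968). Mcm6, of the replicative helicase, had 33.6, 31.7, 30.4 and 24.7 on day 26 and 44.3, 38.3, 64, 43.9 and 34.8 on day 8, with a change of -0.39 ± 0.12 (adjusted p = 0.107). Neither overlapped between the days, and day 8 replicate 3 was highest in both. Such an order was found in 2 of the 26 mitosis genes and 3 of the 26 replication genes, against 2.83% of all genes with day 26 below. Cks2, a partner of cyclin-dependent kinases, at -0.65 ± 0.23 (adjusted p = 0.147), and Mcm5, of the same helicase as Mcm6, at -0.38 ± 0.14 (adjusted p = 0.15), overlapped between the days. In Mki67, the proliferation marker, the change was -0.27 ± 0.16 (adjusted p = 0.395) and the groups overlapped.

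Of 16 macrophage and myeloid genes, all had a negative change, with a median of -0.15, and 0 passed. The largest was that of Adgre1, the macrophage marker F4/80, at -0.38 ± 0.11 (adjusted p = 0.092). Of 28 interferon response genes 1 fell, Dhx58, a cytosolic sensor of viral RNA also called LGP2, at -0.45 ± 0.09 (adjusted p = 0.0129), with signals of 5.88, 10.8, 9.06 and 8.11 in the day 26 kidneys, against 21.3, 16.9, 13.4, 17.4 and 18.7 in the day 8 kidneys. It was dim, and its 2 further probe sets gave -0.01 and 0.04.

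The growth hormone and IGF list had 0 of 19 members pass and a median of -0.01. Igf1, the growth factor that mediates much of the action of growth hormone, had signals of 106, 149.8, 162 and 107 in the day 26 kidneys, against 210.4, 188, 208, 191 and 205 in the day 8 kidneys. The groups did not overlap, with a change of -0.58 ± 0.16 (adjusted p = 0.0735) on the probe set used. On its 2 other probe sets, in the fit of every kept probe set, the changes were -0.73 (adjusted p = 0.00645) and -0.66 (adjusted p = 0.0104), so the call depends on the probe set. Ghr, its upstream receptor, had a change of 0.11 ± 0.09 (adjusted p = 0.535), and Igfbp1, a binding protein, by 0.21 ± 0.21 (adjusted p = 0.65).

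Bmal1, the core transcription factor of the circadian clock, had signals of 109.96, 103, 99.2 and 107 in the day 26 kidneys, against 78.9, 67.6, 74.9, 80.6 and 53.5 in the day 8 kidneys. The kidneys of day 26 were all higher, with a change of 0.48 ± 0.09 (adjusted p = 0.00933). It was the only one of 21 clock genes to pass, and did not pass with the spread of all 57 arrays (adjusted p = 0.114). Per2, a clock repressor, had a change of 0.45 ± 0.16 (adjusted p = 0.14), Nr1d1, which represses Bmal1, -0.40 ± 0.22 (adjusted p = 0.346), Per1 -0.40 ± 0.29 (adjusted p = 0.507) and Dbp 0.13 ± 0.09 (adjusted p = 0.465). The rats were kept in a light-dark cycle, and the clock time of kill is not given in the sources used here.

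**Figure D4:**
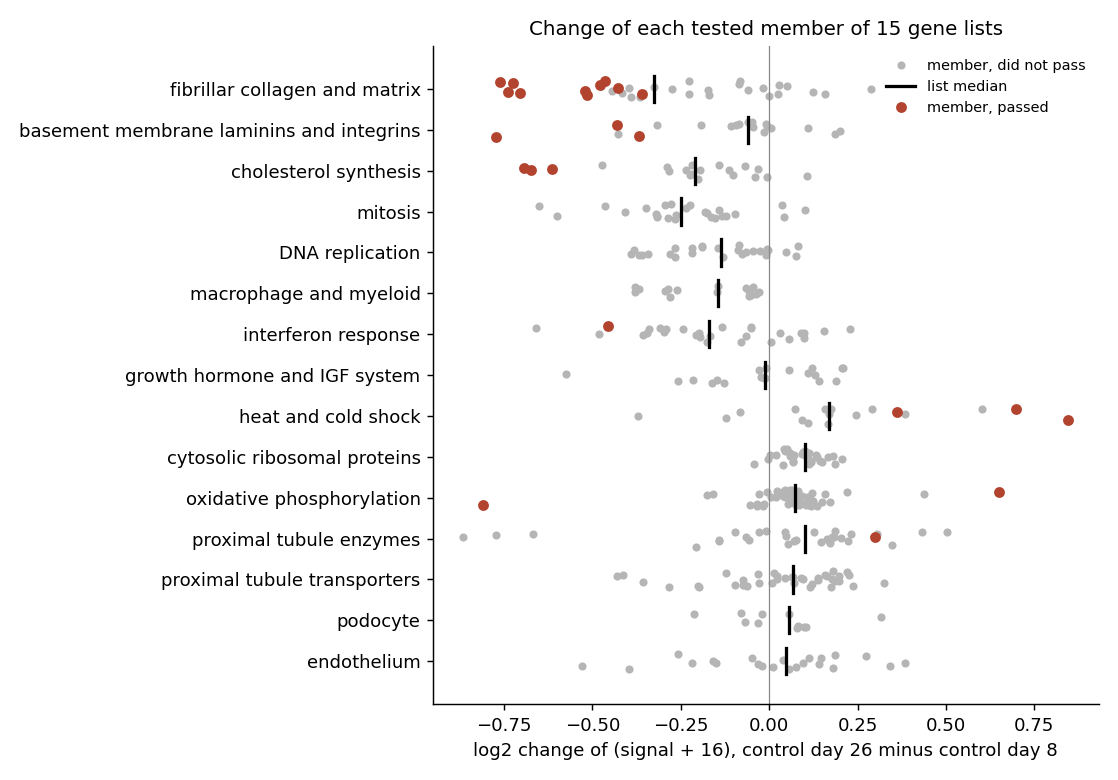
Log2 change of (signal + 16), control day 26 minus control day 8, of each tested member of 15 gene lists, with a point per gene (red, passed, grey, did not pass) and a black bar at the list median. The matrix list has its 10 red points at -0.76 to -0.36, and the 3 red points of the heat and cold shock list lie at 0.36 to 0.85.

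The same 2 days could be compared in rats given 1 mg/kg cisplatin, which share no array with the controls but differ from them by the drug. As in the controls, the age of these rats and any handling done by day cannot be told apart. Cdkn1a changed there by -1.10 ± 0.18 (adjusted p = 0.00263), against -0.20 in the controls. In these rats 697 genes (6.29%) passed, 333 higher (3.01%) and 364 lower (3.29%). Of the 73 genes that rose in controls, 68 had a positive change (93.2%, where 47.1% of all genes did) and 21 passed. Of the 71 that fell, 65 had a negative change (91.5%, where 52.9% of all genes did) and 20 passed. None of the 144 passed in the opposite direction. As shares of the 1 mg/kg calls, these are 6.31% of its rises and 5.49% of its falls. The difference between the controls and the 1 mg/kg rats in the change from day 8 to day 26 passed for 2 genes in all, and for 0 of the 144. The number called at 1 mg/kg was 289 or 267 without its day 26 replicate 1 or 3, and 369 or 446 without its day 8 replicate 1 or 3. This day 8 replicate 1 had an actin 3'/5' ratio of 8.58, where the other day 8 rats of the dose had 4.52 to 6.01. Its GAPDH ratio was 1.66, where the others had 1.29 to 1.41. Without that rat 30 of the 144 passed in the same direction, against 41 with it. The part of RNA integrity in these counts was not tested.

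Col3a1 passed in the 1 mg/kg rats as well, with means of 448 ± 22.7 on day 26 and 621 ± 158 on day 8 (SD, n = 5 each) and a change of -0.43 ± 0.12 (adjusted p = 0.0375). Fn1 passed with -0.57 ± 0.16. The matrix list there had 3 members that fell, Col3a1 and Fn1 among them, and 1 that rose, with a median of -0.20. Nid1 of the basement membrane fell with -0.46 ± 0.13. Col1a1 gave -0.44 ± 0.16 (adjusted p = 0.106), Sparc -0.14 ± 0.09 (adjusted p = 0.338) and Loxl2 0.03 ± 0.10 (adjusted p = 0.894). Smoc2 gave -1.01 ± 0.31 (adjusted p = 0.0574) and Ndufs4 -0.62 ± 0.16 (adjusted p = 0.025).

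Cox5a, Rps27l, Inpp5b, Aplf and Bmal1 also rose in the 1 mg/kg rats. Cox5a averaged 83.8 ± 3.97 on day 26 and 49.9 ± 3.9 on day 8, a change of 0.60 ± 0.07 (adjusted p = 0.000305), and Bmal1 averaged 92.7 ± 8.17 on day 26 and 52.8 ± 9.39 on day 8, a change of 0.67 ± 0.10 (adjusted p = 0.00199). Klk1 rose by 0.77 ± 0.22 (adjusted p = 0.0453). Of the chaperones, Hsp90ab1 rose by 0.19 ± 0.05 (adjusted p = 0.0282), and Hsph1 and Hspb1 gave 0.31 ± 0.11 (adjusted p = 0.0963) and -0.09 ± 0.17 (adjusted p = 0.783).

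The 2 genes whose difference between controls and 1 mg/kg rats passed were Spp1, the secreted phosphoprotein osteopontin, and Nhsl3. Spp1 had -0.04 in controls, which did not pass, and -2.17 ± 0.24 at 1 mg/kg, which did, a difference (controls minus 1 mg/kg) of 2.13 (adjusted p = 0.0132). Nhsl3 likewise had 0.23 in controls and -0.33 ± 0.07 at 1 mg/kg, a difference of 0.56 (adjusted p = 0.0452). Etv5 had -0.86 in controls and -0.10 ± 0.16 at 1 mg/kg, but the difference of -0.76 did not pass (adjusted p = 0.26). Igf1 had -0.58 in controls and 0.45 ± 0.15 at 1 mg/kg, a difference of -1.03 (adjusted p = 0.161).

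**Figure D5:**
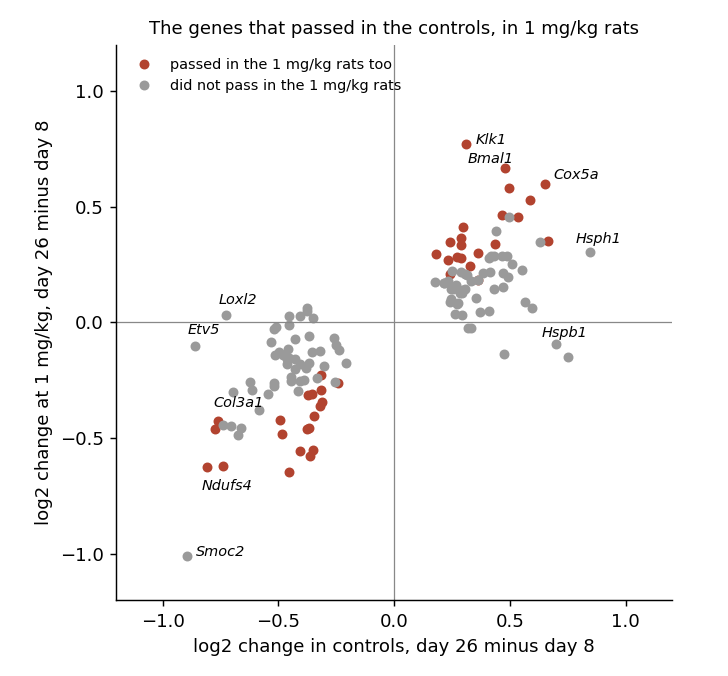
Change of the 144 genes that passed in the controls, with the log2 change of controls (day 26 minus day 8) across and that of the 1 mg/kg rats up, a point per gene (red, passed at 1 mg/kg too, 41 genes, grey, did not). Most points lie in the lower left and upper right quadrants, and Loxl2 and Hspb1 are near 0 on the 1 mg/kg axis.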

How the data were processed

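Each deposited value is the intensity of a probe set on an array, on a linear scale. The submitters' processing notes name MAS5 as the tool the authors used, with no version or settings. Groups, days, doses and replicate numbers came from the labels. The table holds 31099 probe sets, 57 of them controls, and 20826 have 1 gene symbol, taken from the platform annotation and updated through the RefSeq gene table of GRCr8. Probe sets with several symbols or none were not named.

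Values were taken as log2(signal + 16) of the deposited signal. Probe sets above the 40th percentile of their array on at least 4 of the 19 control arrays were kept (15151), and each gene was read from its kept probe set with the highest mean. Group means of days 3, 5, 8 and 26 were fitted with limma 3.58.1 in R 4.3.3, with an intensity trend, two-sided tests and Benjamini-Hochberg adjustment over 11078 genes at 0.05. The errors given with log2 changes are standard errors of this fit, and an SD belongs to its group. The 1 mg/kg comparison used the same settings on the 18 arrays of that dose. Array quality was tested with exact permutation tests in scipy 1.17.1. On simulated data for day 26 against day 8, with 100 genes changed by 0.5 and 100 by 1 among 11078, 72% and 100% were recovered, with 6 false calls. The simulated noise was normal, with each gene's own residual SD, and independent between genes and arrays. It held no kidney that stood apart over many genes, so these figures hold for that setting only.

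The labels call the samples biological replicates. No 2 arrays were alike enough to be 1 sample deposited again. The number of arrays limits the precision. The genes, the 44 gene lists and the comparison were chosen with earlier results of these data known. The text names the 12 called genes that rose most and the 12 that fell most with no overlap between the groups, up to 4 called members of each list or else up to 2 with the largest change, and 37 named whatever their result. Of these, Havcr1, Cyp24a1 and Scd were not among the genes tested, and some are not reported here. Genes named outside the rule are said to be so or complete a count. Alternatives were offsets, normalizations, filters, probe set rules, variance models, the arrays fitted, covariates and leaving out each replicate.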

Additional observations from a re-analysis of the deposited data

Results flagged for a closer look

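Among 248 groups of values of named genes and array measures, 15 held a sample far from the others of its group, where about 1 in 20 groups would by chance. In each, the gap of that sample to its nearest neighbour took up most of the range of the group, by Dixon's criterion.

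RT1-Bb and RT1-T24-4, genes of the major histocompatibility complex, varied widely between rats within each day on the probe sets used. RT1-Bb, a class II chain, had a signal of 2.06 in day 26 replicate 1, where the other day 26 kidneys had 661 to 778, and on day 8 the signals were 3.19, 379, 741, 8.39 and 426. RT1-T24-4, a class I gene, had 403 in day 26 replicate 1, where the others had 6.45 to 14.1, and on day 8 the signals were 399, 211, 17.4, 457 and 77.4. Neither passed, at 1.03 ± 1.22 (adjusted p = 0.71) and -1.69 ± 1.07 (adjusted p = 0.427). A further kept probe set of RT1-Bb had the opposite sign, at -1.95 ± 1.23 in the fit of every kept probe set, and did not pass. The RT1-Bb signals given are thus those of 1 probe set. Over the 8 measured class II genes, summed signals ran from 4585 to 4996 on day 26 and from 3980 to 5137 on day 8. Cd74, the invariant chain of class II, averaged 2466 ± 139.7 on day 26 and 2252 ± 179.6 on day 8.

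Day 8 replicate 3 was high in genes of cell division. Its signal was 86.9 for Ect2, where the other day 8 kidneys had 44.6 to 53.1, 45.6 for Mcm5, where the others had 27 to 29.1, and 68.3 for Mki67, where the others had 36.7 to 40.7. Over the 26 mitosis genes its summed signal was 1615, where the day 8 median was 1041. It was also high in the endothelial ligand Apln, at 66.8.

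Akr1b8, an aldo-keto reductase, had a signal of 16.2 in day 26 replicate 3, where the other day 26 kidneys had 270 to 387. Day 26 replicate 4 was low for Adgre1, at 30.6, and high for Cyp27b1, the vitamin D 1-alpha-hydroxylase, at 43.9. Nrep was high in day 26 replicate 2, at 1122. On day 8, replicate 5 was low for Flt1 at 30.04 and for Hspb1 at 113, replicate 2 was low for Plin2 at 397 and for Rps3 at 992, and replicate 1 was high for Ghr at 417.

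The change from day 8 to day 26 differed between the controls and the rats given 1 mg/kg cisplatin, by an interaction term in limma, for Spp1, by 2.13 (controls minus 1 mg/kg, adjusted p = 0.0132), and for Nhsl3, by 0.56 (adjusted p = 0.0452).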

How the results depend on the processing

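Over 26 alternatives, the 35 named genes that passed gave 908 results, of which 753 still passed in the same direction, 155 kept the direction without passing and 0 reversed. Col3a1, Tnc, Hsph1, Rps27l, Cox5a and Bcat2 passed under every alternative. The alternatives with the most losses were fitting the 9 compared arrays alone (24 genes) and leaving out day 26 replicate 1 (18) or replicate 4 (17). Of the named genes that did not pass, 8 did so under some alternative. The count of 144 genes for day 26 against day 8 was 29 with the 9 arrays alone and 47 to 193 when 1 kidney was left out. Its other alternatives gave 108 to 205. Centring on the 75th percentile gave 113 higher and 72 lower, and quantile normalization 123 and 81, where the reported split was 73 and 71. The count of 697 at 1 mg/kg ran from 267 to 837 when 1 rat was left out.

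The replicate numbers did not pair the kidneys: deviations of same-numbered kidneys of days 26 and 8 correlated at -0.09 to 0.06. With the number as a replicate block 166 genes passed, 116 of them shared with the 144, and 623 at 1 mg/kg. With that block, the other control pairs gave 208 for day 26 against day 3, 383 for day 26 against day 5, 25 for day 8 against day 3, 513 for day 8 against day 5 and 451 for day 5 against day 3. The cause of these changes was not tested, beyond the fewer arrays that some fits hold. Genes near the offset of 16 have understated changes, and a gene read from 1 probe set of several can differ from the others, as for Etv5, Nid1, Dhx58 and RT1-Bb.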
